A study of Mus musculus with 2 samples.

Results

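The exocytosis genes described here are the mouse genes whose symbols name a synaptotagmin (Syt), a syntaxin (Stx), a syntaxin-binding protein (Stxbp), Snap23, Snap25, Snap29 or Snap47, a vesicle-associated membrane protein (Vamp), a complexin (Cplx), Rab3, Rab27, Munc13 (Unc13) or Rims. The rule reads the symbol only and no measured value, although the group was picked with earlier results of these data known. The pattern matched 69 of 46984 features, and 67 members remained after pseudogenes were set aside. They were measured in single tdTomato-sorted islet cells of mice aged 1 month, in 2 libraries made with the 10x 3′ method. Control animals were Neurod1 Cre/+; Isl1f/+ and mutant animals, called Isl1CKO, were Neurod1 Cre/+; Isl1f/f, so both carried the Cre allele and at least 1 floxed allele of Isl1, a LIM-homeodomain factor of islet endocrine cells. The Cre follows the expression of Neurod1, a factor of endocrine precursors and their progeny, and tdTomato is the red reporter used in the sort. Each library pooled 3 animals, and the labels describe the control cells as male and the Isl1CKO cells as female and male.

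Islet hormones are released when dense-core granules fuse with the plasma membrane. Rab3 and Rab27, small GTPases on the granule, help bring it to the membrane, and Munc13 and Rims proteins prepare it there for fusion. The fusion step is driven by SNARE proteins: Vamp on the granule pairs with syntaxin and Snap25 on the plasma membrane, under the control of syntaxin-binding proteins and complexin. Synaptotagmins are the calcium sensors that couple calcium entry to fusion.

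Unique molecular identifiers (UMIs), 1 for each captured RNA molecule, totalled 48685758 in control and 86086781 in Isl1CKO. From these, 3953 and 7782 cells were kept as endocrine cells, with medians of 8854 and 7991.5 UMIs. The libraries shared 8 cell barcodes. The cells of both libraries held general endocrine transcripts (summed 28443 CPM in control and 85849 CPM in Isl1CKO). Within that list Chga, Chgb, Scg3, Neurod1 and Pax6 were higher in Isl1CKO, and Scg2, Pcsk1n, Insm1 and Isl1 were lower. Chga stood at 12042 and 58810 CPM, and Scg2 at 2879 and 397 CPM. Transcripts of the neuron marker list, whose cells use many of the same exocytosis genes, summed to 66.1 and 40.9 CPM. The part of such cells in the results was not tested. Isl1 itself stood at 366 CPM in the control library and 293 CPM in the mutant one. Which exons were floxed is not in the labels. Reads from 3′ ends may lie outside the deleted segment, so this level is no check of the deletion, and genotype was taken from the labels. Contrary to the label of the control pool, cells with Xist and no Y-linked UMIs made up 35.8% of control endocrine cells of known sex, against 75.7% in Isl1CKO, and values within each sex are therefore given beside the pooled ones for the genes described most fully. With 1 library per genotype there is no replicate check, no test and no p-value, and differences between the pooled animals cannot be told apart from the genotype.

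Levels are given in CPM (the usual scaling of UMIs by the total of the summed cells, adjusted by TMM), with exact 95% Poisson intervals in parentheses. Ratios are log2 of Isl1CKO over control with 1 added to each summed count, and their 95% intervals, like the others, cover counting error only. A gene counted as measured when either library reached 5 CPM. It is called lower or higher when it differed by at least 2-fold with an interval that excludes equality. UMIs count captured molecules and are not divided by gene length. Levels are compared within a gene, and sums within a list of genes. Over all endocrine cells 46 of the 67 members were measured: 7 reached 100 CPM in at least 1 library, 31 reached 20 CPM and 8 reached 5 CPM. Another 20 stayed under 5 CPM in both libraries, among them Rims1, Unc13c, Cplx1, Cplx3, Cplx4 and Syt10, and Syt8 had no UMI in either.

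Upstream sequences of 4 members with large differences between the libraries or between cell classes, picked after their values were seen, are shown so that their letters can be read beside the values. Homeodomain factors such as Isl1 bind sites with a TAAT core, and capitals mark each TAAT or its reverse ATTA. Each is the 250 bases before the first RefSeq start listed, written 5′ to 3′ on the gene's strand of GRCm38.p6: chr4:108878820-108879069 (plus) for Rab3b, chr8:70754453-70754702 (plus) for Rab3a, chr10:109010976-109011225 (minus) for Syt1 and chr16:37384959-37385208 (minus) for Stxbp5l.
Rab3b: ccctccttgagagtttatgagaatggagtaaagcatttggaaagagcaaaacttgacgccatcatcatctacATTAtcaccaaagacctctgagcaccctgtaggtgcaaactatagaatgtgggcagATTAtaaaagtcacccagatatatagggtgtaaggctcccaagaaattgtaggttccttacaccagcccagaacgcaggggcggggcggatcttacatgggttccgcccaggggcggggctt
Rab3a: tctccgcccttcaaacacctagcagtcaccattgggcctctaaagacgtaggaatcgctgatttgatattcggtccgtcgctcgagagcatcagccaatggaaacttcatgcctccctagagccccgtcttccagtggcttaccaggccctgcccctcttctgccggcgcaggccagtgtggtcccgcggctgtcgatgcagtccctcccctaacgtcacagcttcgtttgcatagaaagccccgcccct
Syt1: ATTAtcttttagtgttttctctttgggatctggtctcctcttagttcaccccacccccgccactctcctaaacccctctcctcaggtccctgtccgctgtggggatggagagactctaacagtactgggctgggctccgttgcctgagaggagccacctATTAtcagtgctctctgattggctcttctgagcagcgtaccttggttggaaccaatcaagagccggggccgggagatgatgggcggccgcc
Stxbp5l: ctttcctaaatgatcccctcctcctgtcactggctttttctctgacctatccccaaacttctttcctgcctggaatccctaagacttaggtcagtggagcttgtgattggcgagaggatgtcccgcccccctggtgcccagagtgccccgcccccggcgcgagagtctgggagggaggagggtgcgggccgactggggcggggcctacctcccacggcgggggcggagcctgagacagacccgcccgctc
Rab3b and Syt1 held 2 TAAT cores each in these windows and Rab3a and Stxbp5l none. On either strand TAAT was found in 24 of 65 windows of 52 members (36.9%), against 54.9% of all 32851 RefSeq windows of the same length. The members' windows had a median GC content of 60.4%, against 52.4% over all windows. A match is a description of the letters and not a bound site, and no match says nothing about the factor.

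Over all endocrine cells the exocytosis genes as a group stood at nearly the same TMM-scaled level in both libraries, while a few of them differed severalfold. Their summed level was 2379 CPM in control and 2338 CPM in Isl1CKO; on plain totals it was 1983 and 2835 CPM, with a median log2 ratio of 0.57 over the members and 0.60 over all genes. The median log2 ratio of the 46 measured members was -0.01, beside 0.04 over all 10343 measured genes. Within 0.5 of 0 lay 32 of the 46 members, beside 6451 of the 10343 genes. Rab3a, Rab27b, Syt1, Syt9, Syt16 and Stxbp5l were called lower in Isl1CKO and Rab3c was called higher. The 6 lower calls of 46 compare with 6.36% of all measured genes, and the 1 higher call with 6.58%; in either direction 7 members were called, against 12.9% of all genes, a share near that background. With CPM on plain totals, which moved all log2 ratios by 0.54, the split of 1 higher and 6 lower became 7 higher and 5 lower of 49 measured, against 22.4% and 2.73% of all genes. All 7 calls had the same sign in male and in female cells. The cells of both sexes are part of the pooled sums that set the calls, so this is no independent check.

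**Figure D1:**
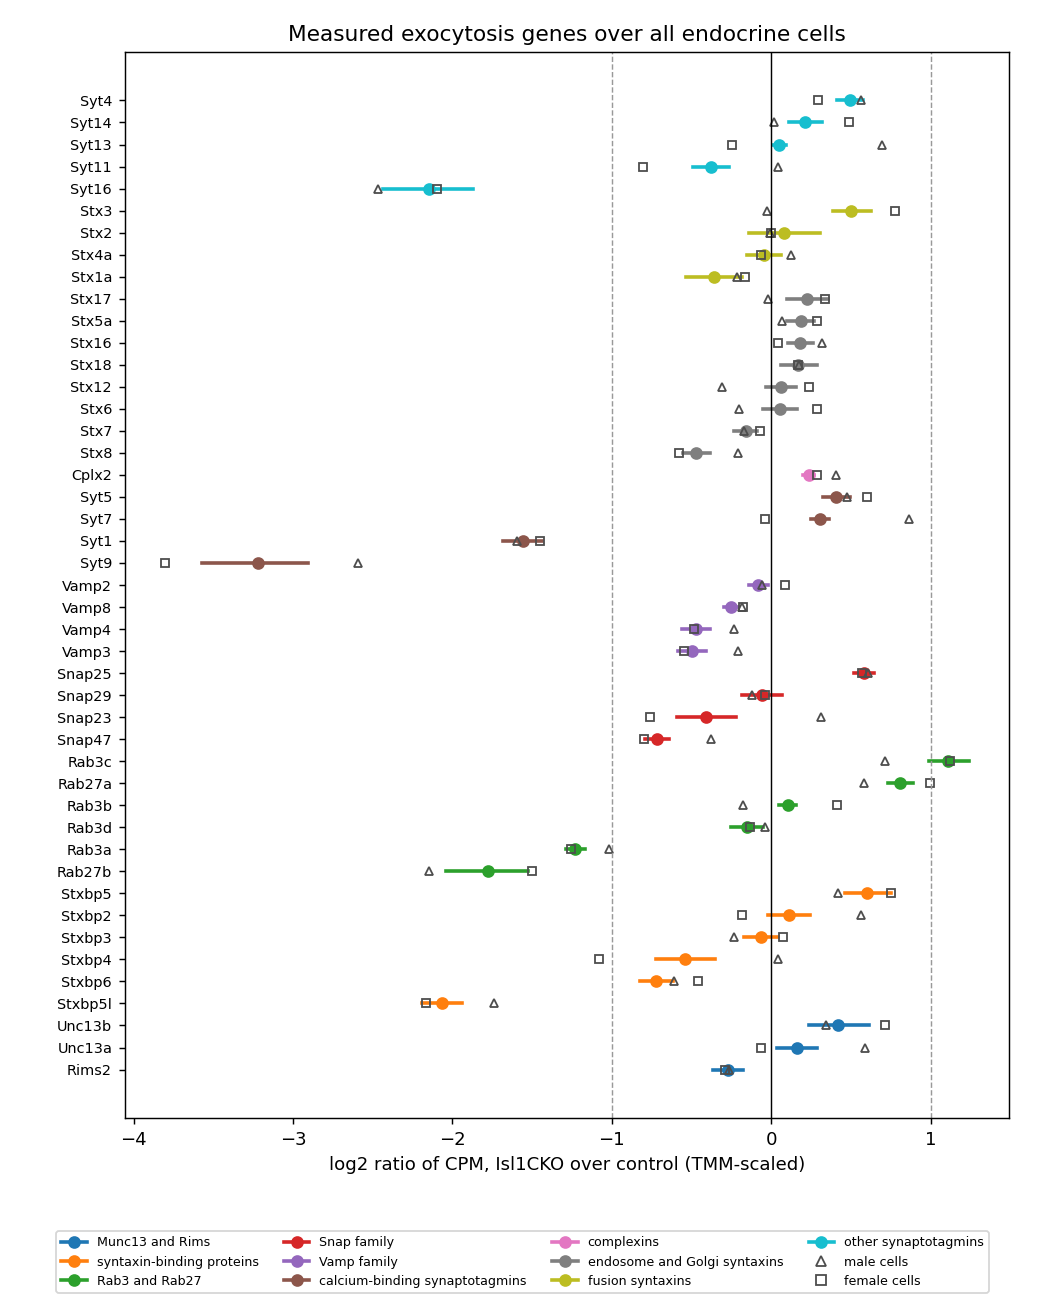
Log2 ratio of CPM (Isl1CKO over control, x axis) for 45 of the 46 measured exocytosis genes over all endocrine cells, grouped by role (colour); bars are 95% counting intervals, triangles are male cells and squares female cells, and dashed lines mark 2-fold. Most genes lie between the dashed lines, and Syt9, Syt16, Stxbp5l, Rab27b, Syt1 and Rab3a lie to the left.

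Among the granule GTPases, Rab3a (ENSMUSG00000031840.12, chromosome 8, 70754679 to 70758677), the main Rab3 of neurons and also found in islet cells, stood at 138 CPM (134 to 142) over control endocrine cells and 59.0 CPM (57.4 to 60.7) over those of Isl1CKO. The intervals lie far apart, and the log2 ratio was -1.23 (-1.29 to -1.17), with -1.02 in male and -1.26 in female cells. On plain totals the ratio was -0.69, so Rab3a was then lower by less than 2-fold. Rab3c (ENSMUSG00000021700.9, chromosome 13, 110054187 to 110280996), a close relative, had the opposite pattern, with 18.9 CPM (17.4 to 20.4) in control and 40.9 CPM (39.6 to 42.2) in Isl1CKO. Its log2 ratio was 1.11 (0.99 to 1.24), and it was 0.71 in male cells, 1.12 in female cells and 0.91 with totals that leave out hormone genes. Rab3b (ENSMUSG00000003411.10, chromosome 4, 108879063 to 108943324) stood at 114 and 123 CPM, with a log2 ratio of -0.18 for male cells against 0.41 for female ones, and Rab3d at 35.0 and 31.4 CPM. Rab27a, which recruits granuphilin and its relatives to granules, stood at 49.7 CPM (47.4 to 52.2) and 87.3 CPM (85.3 to 89.3), a log2 ratio of 0.81 that missed the 2-fold limit and passed it on plain totals (1.35). Its paralogue Rab27b was at 8.77 CPM in control and 2.55 CPM in Isl1CKO (log2 ratio -1.78, -2.04 to -1.52).

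Of the synaptotagmins that bind calcium, Syt7 (chromosome 19, 10389090 to 10453180), a high-affinity sensor of insulin and glucagon granules, stood at 104 CPM (101 to 108) in control and 129 CPM (127 to 132) in Isl1CKO. Syt5 was at 45.1 and 60.0 CPM (log2 ratio 0.41). Syt1 (ENSMUSG00000035864.14, chromosome 10, 108497650 to 109010982), the fast sensor of synaptic vesicles, was lower, at 34.6 CPM (32.6 to 36.7) in control and 11.7 CPM (11.03 to 12.5) in Isl1CKO. Its log2 ratio was -1.56 (-1.68 to -1.44), with -1.59 in male and -1.45 in female cells. Syt9, a dense-core granule sensor, had 348 UMIs in control and 97 in the larger Isl1CKO library, or 10.52 CPM (9.45 to 11.7) and 1.12 CPM (0.91 to 1.37). That log2 ratio of -3.22 (-3.57 to -2.90) was the lowest of the measured members. Of the other synaptotagmins, Syt13, an atypical member that lacks calcium binding and is known from endocrine cell formation, stood at 222 and 229.7 CPM, Syt4 at 46.1 and 64.8 CPM, and Syt16 at 8.47 and 1.90 CPM (log2 ratio -2.15).

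The SNARE and complexin transcripts lay within 2-fold on the TMM scale, while on plain totals Snap25 (log2 ratio 1.12) and Stx3 (1.04) were called higher. Vamp2, the main granule SNARE, stood at 93.8 CPM (90.5 to 97.2) in control and 88.7 CPM (86.7 to 90.7) in Isl1CKO. Vamp8, a SNARE of endosomes and of newly arriving granules, was at 185 and 156 CPM. Snap25, the plasma membrane partner, was at 77.8 CPM (74.8 to 80.9) and 116.5 CPM (114 to 119), a log2 ratio of 0.58 with 0.61 in male and 0.57 in female cells. Its relative Snap47 stood at 72.5 and 44.1 CPM (log2 ratio -0.72). None of the 4 Snap, 4 measured Vamp, 4 fusion syntaxin (Stx1a, Stx2, Stx3, Stx4a) and 8 endosome and Golgi syntaxin genes was called in either direction on the TMM scale. Stx1a, the syntaxin that pairs with Snap25 in granule fusion, was at 12.0 and 9.35 CPM. Cplx2, the complexin measured in these cells, stood at 255 CPM (249.7 to 261) and 300.2 CPM (296.5 to 304).

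Among the regulators of SNARE assembly, Stxbp5l had the lowest ratio of the members that reached 20 CPM. The gene (ENSMUSG00000022829.14, chromosome 16, 37114942 to 37384962) encodes tomosyn-2, which holds syntaxin and Snap25 in a complex without Vamp. It stood at 39.9 CPM (37.8 to 42.1) in control and 9.55 CPM (8.91 to 10.2) in Isl1CKO. The log2 ratio was -2.06 (-2.19 to -1.94), with -1.74 in male and -2.17 in female cells. Stxbp5, which encodes tomosyn-1, was at 14.8 and 22.5 CPM (log2 ratio 0.60). Stxbp6, which encodes amisyn, was at 36.4 and 22.1 CPM (log2 ratio -0.72). Of the priming factors, Unc13a (Munc13-1) was at 21.5 and 24.1 CPM and Rims2, which links Rab3 to calcium channels, at 39.9 and 33.1 CPM.

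The sum over endocrine cells mixes cell types in different proportions, so the same genes were followed in classes set by the same rule in both libraries. Alpha-factor cells had a UMI of an alpha-lineage factor, Irx1 and Irx2 among them, and none of Nkx6-1 or Hhex, and beta-factor cells had a UMI of Nkx6-1 and none of the other factors. There were 1709 control and 1565 Isl1CKO alpha-factor cells (41.6% and 76.6% female) and 391 and 2863 beta-factor cells (26.2% and 68.9% female). The classes are not the same cell state in both libraries. Among the alpha-factor cells 71.8% of control cells had glucagon as the 1 hormone with at least 1% of UMIs, and 93.4% of Isl1CKO cells had no such hormone. Of the beta-factor cells 37.1% in control had insulin alone and 79.6% in Isl1CKO had no hormone.

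In alpha-factor cells 6 of 47 measured members were called lower in Isl1CKO, against 7.18% of all genes, and none was called higher, against 7.14%. The 6 were Rab3a, Rab3b, Rab27b, Syt9, Syt16 and Stxbp6; on plain totals the split became 3 higher and 4 lower, against 18.6% and 3.3% of all genes. Rab3b stood at 52.5 CPM (48.9 to 56.3) in control and 12.7 CPM (11.1 to 14.4) in Isl1CKO, a log2 ratio of -2.05 (-2.27 to -1.84), with -2.45 in male and -1.79 in female cells. Rab3a stood at 121 CPM (115 to 126) and 52.7 CPM (49.4 to 56.2), a log2 ratio of -1.19. Stxbp6 was at 16.1 CPM (14.2 to 18.3) and 7.90 CPM (6.65 to 9.31), just past 2-fold at -1.03. The gamma-cell markers Ppy and Pyy summed to 117213 CPM in control and 3.84 CPM in Isl1CKO alpha-factor cells, and 10.1% of the control class were Ppy-only cells, where Stxbp6 is high; their part in its ratio was not tested. In Gcg-only cells the log2 ratio of Stxbp6 was 0.37. Rab27b was at 12.6 and 2.17 CPM, Syt16 at 11.5 and 1.11 CPM, and Syt9 at 12.6 and 0.67 CPM. Syt5 stood at 27.4 CPM (24.8 to 30.2) and 50.9 CPM (47.6 to 54.3), a log2 ratio of 0.89, or 1.42 for male cells and 0.60 for female ones. Syt13 was at 191 and 129 CPM (log2 ratio -0.57, with 0.26 in male and -1.13 in female cells), and Snap25, Vamp2 and Cplx2 had log2 ratios of 0.07, -0.02 and 0.01. The median log2 ratio of the members was -0.10, beside 0.03 over all genes.

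In beta-factor cells 4 of 46 measured members were called lower, against 5.96% of all genes, and 3 higher, against 7.58%. On plain totals, which moved all log2 ratios in this class by 0.81, these became 1 lower, against 1.65% of all genes, and 17 higher, against 42.1%. Rab3a stood at 155 CPM (143 to 168) in control and 57.4 CPM (55.0 to 59.9) in Isl1CKO, a log2 ratio of -1.44 (-1.56 to -1.30) that was -0.63 on plain totals. Stxbp5l was at 34.2 CPM (28.7 to 40.5) and 7.08 CPM (6.25 to 7.99), a log2 ratio of -2.28. Syt9 had 23 control UMIs and was at 5.87 and 1.56 CPM. On the other side, Rab3c stood at 13.0 CPM (9.69 to 17.1) and 43.1 CPM (41.0 to 45.2), a log2 ratio of 1.70 (1.32 to 2.16). Syt5 was at 29.9 CPM (24.7 to 35.8) and 62.3 CPM (59.7 to 64.9), and Stxbp5 at 10.47 CPM (7.51 to 14.2) and 23.1 CPM (21.6 to 24.7). With totals that leave out hormone genes, the ratios of Syt5 and Stxbp5 were 0.86 and 0.92 in place of 1.05 and 1.11. Snap25 stood at 75.6 CPM (67.2 to 84.7) and 124 CPM (120.1 to 127), a log2 ratio of 0.71, and Rab3b at 133 CPM (122 to 145) and 175 CPM (171 to 179), a log2 ratio of 0.39.

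**Figure D2:**
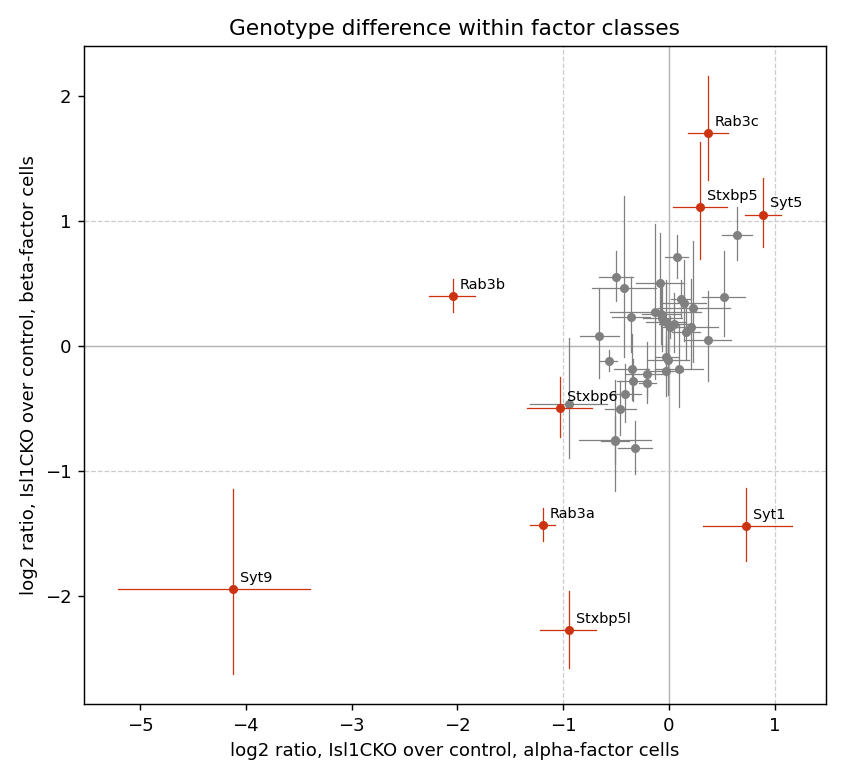
Log2 ratio of CPM (Isl1CKO over control) in alpha-factor cells (x axis) against beta-factor cells (y axis) for the 44 members measured in both, with 95% counting intervals; red points were called in at least 1 class and dashed lines mark 2-fold. Rab3a and Syt9 lie at the lower left, while Rab3b has -2.05 on the x axis against 0.39 on the y axis, and Syt1 has 0.73 against -1.44.

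Syt1 was called lower in beta-factor cells, at 32.4 CPM (27.0 to 38.6) in control and 12.0 CPM (10.9 to 13.1) in Isl1CKO. In this class the somatostatin-cell markers (Sst, Hhex, Rbp4 and Ghsr) summed to 20532 CPM in control and 99.7 CPM in Isl1CKO. Hhex was at 0 in both by the rule. Of the control class 4.09% were Sst-only cells, 25.6% had 2 or more hormones and 18.4% had none. The part of these cells in the Syt1 ratio was not tested. In cells with insulin as the 1 hormone, Syt1 was at 4.51 CPM (1.95 to 8.88) in control and 2.73 CPM (1.89 to 3.82) in Isl1CKO, with overlapping intervals. At a hormone limit of 5%, with 198 control and 442 Isl1CKO cells, it had 18 and 14 UMIs. Scaled for that comparison these were 6.05 and 1.45 CPM, a log2 ratio of -2.04 (-3.18 to -0.97) that was called lower.

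Among the control hormone classes single exocytosis genes differed severalfold, while the shares of members called lay near those of all genes. Cells with at least 1% of their UMIs from only 1 hormone numbered 1566 for glucagon (Gcg), 214 for somatostatin (Sst), 430 for pancreatic polypeptide (Ppy) and 182 for insulin (Ins1 and Ins2). Against Gcg-only cells, Sst-only cells had 6 of 49 measured members called higher, beside 8.67% of all genes, and 5 called lower, beside 7.23%. Insulin-only cells had 5 of 50 called higher, beside 8.69%, and 6 lower, beside 8.96%. Ppy-only cells had 2 of 48 called higher, beside 5.37%, and 1 lower, beside 6.84%. Cells of 1 library are not replicates, and these are descriptions of that library.

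Syt1 was at its highest in the somatostatin class. It stood at 107 CPM (92.1 to 124) in Sst-only cells, 5.05 CPM (3.87 to 6.49) in Gcg-only cells, 4.51 CPM in insulin-only cells and 3.01 CPM (1.44 to 5.53) in Ppy-only cells, and the last 3 do not differ beyond their intervals. It was also at 68.4 CPM (63.8 to 73.3) in the 1468 cells with 2 or more hormones and at 88.0 CPM (67.4 to 113) in the 93 control cells with none. Of the 549 control cells with Hhex, the factor of somatostatin cells, and no other class factor, 81.6% had 2 or more hormones. At a hormone limit of 5%, 587 control cells had 2 or more hormones and 724 had somatostatin alone. Rab3b was also highest in the somatostatin class, with 216 CPM (194 to 239) in Sst-only, 104 CPM (89.2 to 120) in insulin-only, 88.4 CPM (78.6 to 99.1) in Ppy-only and 49.7 CPM (45.8 to 53.8) in Gcg-only cells. Insulin-only and Ppy-only cells overlap. Syt5 stood at 90.5 CPM (76.8 to 106) in Sst-only cells and between 29.3 and 34.3 CPM in the other 3 single-hormone classes. Stxbp5l was at 76.3 CPM (63.7 to 90.7) in Sst-only cells and between 16.9 and 22.5 CPM in the others. Stxbp6 was at its lowest in the glucagon class, with 8.37 CPM (6.81 to 10.2) in Gcg-only, 42.8 CPM (33.7 to 53.6) in insulin-only, 64.5 CPM (53.0 to 77.8) in Sst-only and 75.5 CPM (66.4 to 85.4) in Ppy-only cells.

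Rab3c was low in the somatostatin and insulin classes. It stood at 29.3 CPM (26.3 to 32.5) in Gcg-only and 31.3 CPM (25.5 to 37.9) in Ppy-only cells, which overlap, and at 3.94 CPM (7 UMIs) in insulin-only and 2.37 CPM (4 UMIs) in Sst-only cells. Rab27b was at 13.3 CPM in Gcg-only and 13.2 CPM in Ppy-only cells, with 1 UMI in insulin-only and 2 UMIs in Sst-only cells. Syt16 had 165 UMIs (13.7 CPM) in Gcg-only and 1 UMI in insulin-only cells. Rims3, a short Rims protein, was at 13.0 CPM (8.21 to 19.4) in insulin-only and 0.66 CPM (0.29 to 1.31) in Gcg-only cells, a log2 ratio of 4.18. Stx7, a syntaxin of late endosomes, stood at 117 CPM (101 to 134) in insulin-only and 52.9 CPM (48.8 to 57.1) in Gcg-only cells. Rab3a was at 188 CPM (168 to 209) in insulin-only, 153 CPM (140.0 to 167) in Ppy-only, 126 CPM (120.1 to 133) in Gcg-only and 114 CPM (98.7 to 132) in Sst-only cells, the last pair with overlapping intervals. Vamp2 stood between 87.1 and 106 CPM in these 4 classes.

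**Figure D3:**
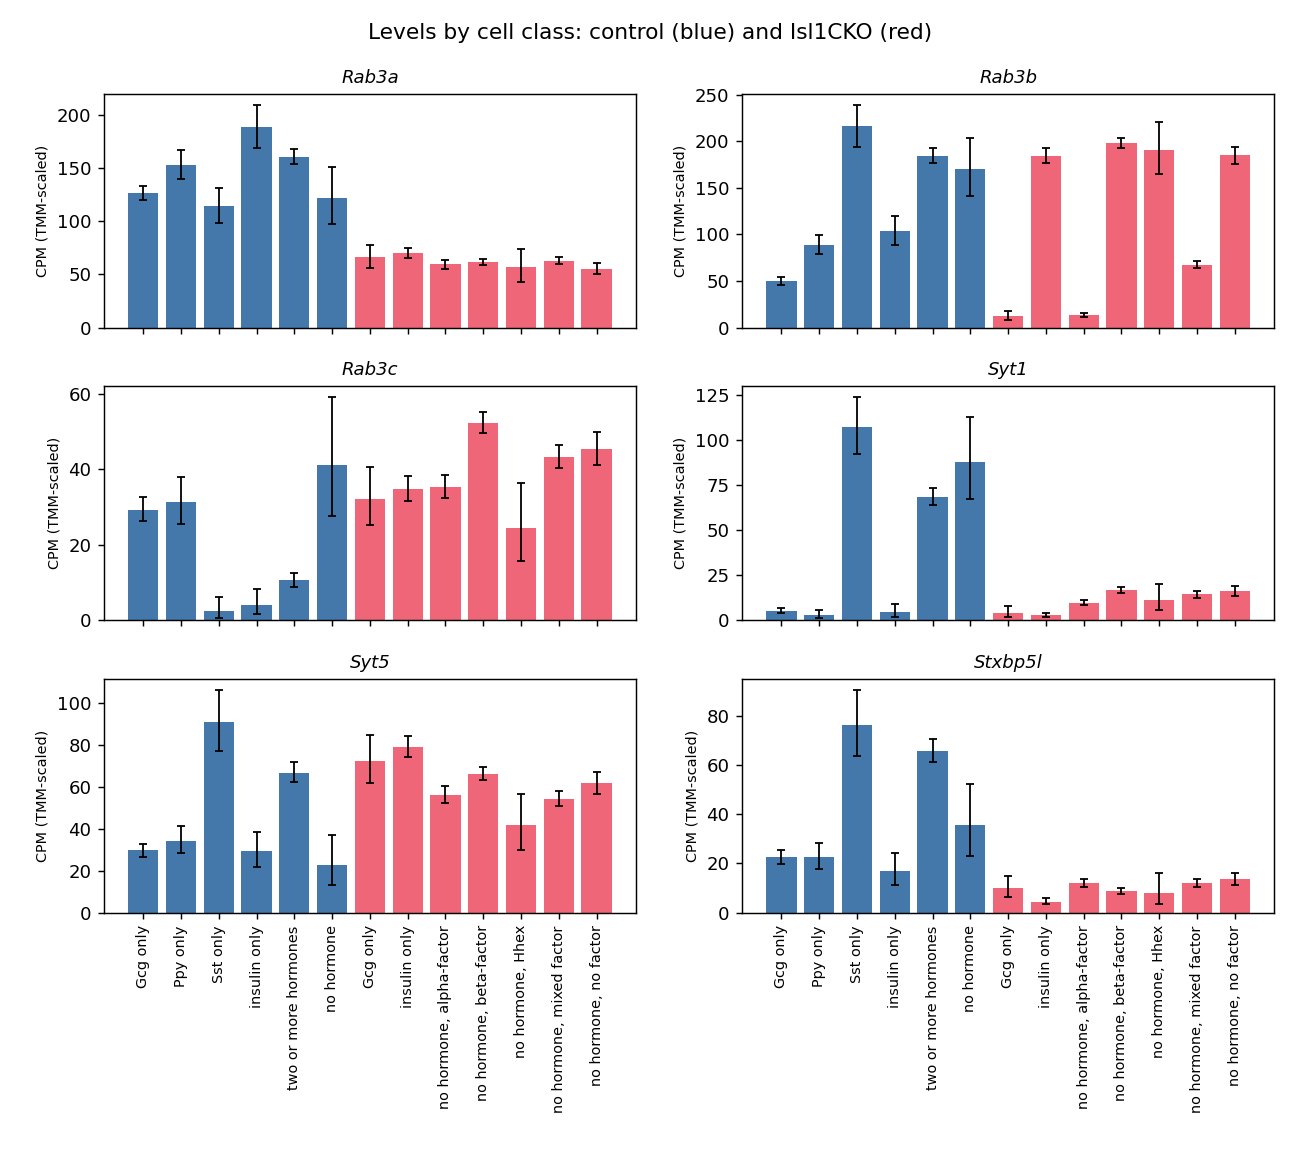
Level (CPM, TMM-scaled over all classes, y axis of each panel, from 0) of Rab3a, Rab3b, Rab3c, Syt1, Syt5 and Stxbp5l in cell classes of the control library (blue) and the Isl1CKO library (red); bars are summed cells of 1 library and whiskers 95% Poisson intervals. Syt1 reaches 107 CPM in control Sst-only cells and stays at or below 16.8 CPM in each Isl1CKO class shown, and Rab3b is at 12.2 and 13.3 CPM in the Isl1CKO Gcg-only and alpha-factor bars.

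The Isl1CKO library held 167 Gcg-only, 881 insulin-only and 6720 no-hormone cells, and only 3 Sst-only and 3 Ppy-only cells. In this library Rab3c stood at 32.1 CPM (25.1 to 40.5) in Gcg-only and 34.7 CPM (31.5 to 38.1) in insulin-only cells, which overlap, where the control classes differed with 29.3 and 3.94 CPM. Rab3a stood between 55.5 and 69.8 CPM in all Isl1CKO classes of at least 50 cells, below the lowest control class at 114 CPM. Between the libraries, however, Rab3a was not called in Gcg-only cells at the 1% hormone limit. Of 44 measured members, 7 were called higher in insulin-only than in Gcg-only cells, beside 10.3% of all genes, and 2 lower, beside 4.92%. Stxbp5l, 1 of the 2, stood at 9.96 CPM (6.24 to 15.1) in Gcg-only and 4.50 CPM (3.40 to 5.84) in insulin-only cells. Syt5 was at 72.4 CPM (61.6 to 84.5) and 78.9 CPM (74.1 to 84.0), against 29.6 and 29.3 CPM in the control classes.

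Of the measured members, Rab3b had the largest ratio between the alpha-factor and beta-factor cells of the Isl1CKO library. In cells without a hormone it stood at 13.3 CPM (11.5 to 15.3) with alpha factors and at 198 CPM (193 to 204) with the beta factor. It was at 191 CPM (165 to 221) in no-hormone Hhex cells, 185 CPM (176 to 194) in those with no factor and 67.8 CPM (64.0 to 71.7) in those with mixed factors. The same contrast held in cells with a hormone, at 12.2 CPM (8.05 to 17.8) in Gcg-only and 185 CPM (177 to 192) in insulin-only cells. Over all beta-factor against alpha-factor cells the log2 ratio was 3.76 (3.58 to 3.97) in Isl1CKO and 1.32 (1.15 to 1.48) in control; the difference between the libraries was not tested. These ratios, like the genotype ratio of -2.05, use the levels as measured, and how much of the low alpha-factor level is free RNA was not tested. In male cells these ratios were 4.16 and 1.40, and in female cells 3.73 and 1.69.

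Beta-factor cells of the Isl1CKO library had 5 of 46 measured members called higher than alpha-factor cells, beside 6.4% of all genes, and none called lower, beside 3.27%. Besides Rab3b, these were Stxbp6 (32.9 and 8.67 CPM, log2 ratio 1.91), Syt4 (89.2 and 36.5 CPM, 1.29), Syt13 (325 and 141 CPM, 1.21) and Rims3 (5.70 and 2.75 CPM, 1.03). The same 5 genes were called between the no-hormone cells of these classes, out of 45 measured and beside 5.86% of all genes, and none was called lower there, beside 3.34%. In control 4 of 49 members were higher in beta-factor cells, beside 5.87% of all genes, and 5 were lower, beside 5.11%. Rab3b, Stxbp6, Rims3 and Syt1 were the higher ones. Rab27b, Syt16, Syt9, Stx1a and Syt11 were the lower ones, led by Rab27b with 1.37 and 13.8 CPM. In the Isl1CKO library Rab27b, Syt16 and Syt9 stood at 2.17, 1.11 and 0.67 CPM in alpha-factor cells on the scale of the genotype comparison.

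**Figure D4:**
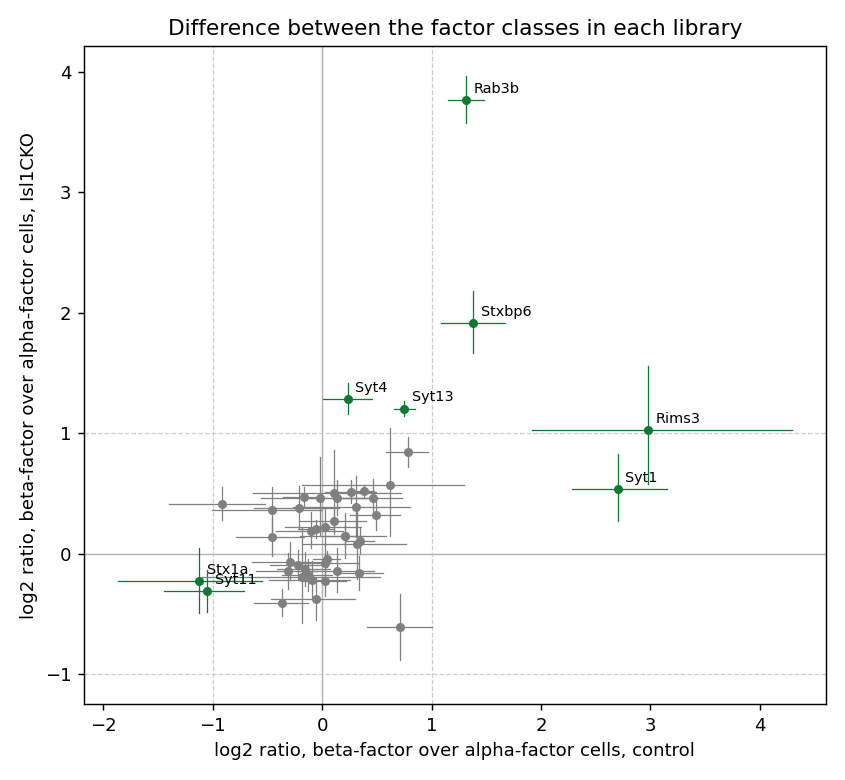
Log2 ratio of CPM, beta-factor over alpha-factor cells, in control (x axis) against Isl1CKO (y axis) for the 46 members measured in both, with 95% counting intervals; green points were called in at least 1 library and dashed lines mark 2-fold. Rab3b lies at the top with 1.32 and 3.76, and Syt1 lies far to the right with 2.705 in control and within 2-fold in Isl1CKO.

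Cells that kept a hormone were compared between the libraries as well. In Gcg-only cells 7 of 46 members were called lower in Isl1CKO, beside 10.7% of all genes, and 1 higher, beside 9.11%. Rab3b stood at 43.7 and 10.8 CPM (log2 ratio -1.96, -2.63 to -1.46) and Syt13 at 183 and 90.6 CPM (-1.01). The higher gene was Syt5, at 26.0 and 64.2 CPM (1.31, 1.02 to 1.57), and its ratio was 0.90 with totals that leave out hormone genes. Most of these Isl1CKO cells lay between 1% and 5%: at a hormone limit of 5% the class held 11 Isl1CKO and 1778 control cells. Then 5 members were lower and 2 higher, and 2 of the 7 lower calls remained, Rab3b (0 Isl1CKO UMIs) and Syt13 (13 UMIs). Rab3a, which was not among the 7, was called lower at 5% on 5 Isl1CKO UMIs (log2 ratio -2.05, -3.93 to -1.08). The share of all genes called at that limit is not given here, so these counts have no background beside them. In insulin-only cells 3 of 43 members were lower, beside 6.79% of all genes, and 3 higher, beside 9.35%. Rab3a stood at 134 and 49.4 CPM (log2 ratio -1.45), Stxbp5l at 12.1 and 3.18 CPM (-1.94) and Rims3 at 9.25 and 4.49 CPM (-1.09, but 0.79 in female cells). Rab3c, with 7 control UMIs, stood at 2.82 and 24.6 CPM (2.94, 2.07 to 4.45), Syt5 at 20.9 and 55.9 CPM (1.39) and Stxbp5 at 8.05 and 17.97 CPM (1.09). In no-hormone cells, of which control held 93, 3 of 48 members were lower (Syt1, Stxbp5l and Rab3a), beside 5.86% of all genes, and Syt5 was higher, beside 7.18%. The no-hormone classes differ in lineage factors. Of the 93 control cells 72 were beta-factor and 2 alpha-factor cells, against 2278 and 1461 of 6720 in Isl1CKO. The part of this difference in the ratios was not tested. The insulin-only cells were 16.5% female in control and 65.5% in Isl1CKO.

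Hhex cells, the class with the factor of somatostatin cells, numbered 549 in control and 122 in Isl1CKO, of which 31.7% and 95.6% were female. They are not the same cell state in both libraries. In control 81.6% had 2 or more hormones and 17.7% had somatostatin alone, while in Isl1CKO 82.8% had no hormone and 10.7% had insulin alone. Among Hhex cells 7 of 48 members were called lower, beside 12.0% of all genes, and 2 higher, beside 10.4%. Syt1 stood at 124 CPM in control and 12.1 CPM (13 UMIs) in Isl1CKO, a log2 ratio of -3.26 (-4.28 to -2.57). Stxbp5l was at 105 and 13.9 CPM (15 UMIs) and Stxbp6 at 76.6 and 28.8 CPM. Rab3a was at 171 and 63.1 CPM. Rab3b stood at 278 and 246 CPM (log2 ratio -0.17, -0.38 to 0.02), whose interval includes equality. Rab3c, with 10 control UMIs, was at 2.72 and 26.9 CPM, and Snap25 at 64.1 and 131 CPM, although the Snap25 ratio was -0.48 in male cells, of which Isl1CKO held 5.

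Several members had ratios of opposite sign in the sexes. Over endocrine cells this held for 15 of the 46 measured members, and for Rab3b, Snap23, Stx6, Stx12 and Syt13 both intervals excluded equality. The share of all measured genes with opposite signs was not counted, so these counts are not read as a trait of the members. Syt13 stood at 228 CPM in control and 368 CPM in Isl1CKO male cells (log2 ratio 0.69, 0.63 to 0.75) and at 194 and 163 CPM in female cells (-0.25, -0.33 to -0.17). In alpha-factor cells its ratios were 0.26 in male and -1.13 in female cells, and in beta-factor cells 0.50 and -0.48. Syt7 stood at 101 and 184 CPM in male endocrine cells (0.86) and at 111 and 108 CPM in female cells (-0.04). Its ratios were 0.72 and -0.23 in alpha-factor cells and 1.00 and -0.26 in beta-factor cells. Male and female cells come from different animals of each pool, so sex and animal cannot be told apart, and the differences between the sexes were not tested. A sex was set for 1636 male and 911 female of the 3953 control cells, and for 1645 and 5122 of the 7782 Isl1CKO cells. Male and female cells had medians of 9457.5 and 8827 UMIs in control, and of 10903 and 7775.5 in Isl1CKO. The part of this depth in the ratios was not tested.

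Shares of cells with a UMI were compared after each cell was thinned to 3000 UMIs, which left out 171 control and 681 Isl1CKO endocrine cells. Rab3a was then found in 29.5% (28.1 to 31.0, exact Clopper-Pearson interval) of control and 18.7% (17.8 to 19.7) of Isl1CKO cells, and unthinned in 61.0% and 42.3%. Rab3c was found in 4.47% (3.83 to 5.18) and 13.1% (12.4 to 13.9), and unthinned in 13.0% and 31.6%. The Isl1CKO cells left out as non-endocrine, 62 of which could be thinned, had Rab3a in 12.9% (5.74 to 23.9) and Rab3c in 4.84% (1.01 to 13.5) of cells, with a median of 6626 UMIs before thinning; both intervals include the endocrine share. Rab3b was found in 49.2% (47.3 to 51.1) of Isl1CKO beta-factor and 4.84% (3.81 to 6.06) of Isl1CKO alpha-factor cells, whose medians were 8563 and 8416 UMIs. It was found in 29.03% (18.2 to 41.9) of the non-endocrine cells, above the alpha-factor share. In control the Rab3b shares were 34.1% (29.4 to 39.2) and 12.4% (10.8 to 14.0), and 0 of 12 thinned non-endocrine cells had a UMI, with an exact interval up to 26.5%. In the nearly empty barcodes of at most 100 UMIs, which hold free RNA, Rab3a made up 115 CPM of plain totals in control and 89.2 CPM in Isl1CKO, against 115 and 71.1 CPM in endocrine cells. Rab3b made up 89.0 and 179 CPM there, and Rab3c 12.6 and 44.9 CPM.

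A list of 48 further exocytosis genes outside the symbol pattern was read in the same way. Over endocrine cells 39 were measured, of which 6 were lower in Isl1CKO, beside 6.36% of all genes, and 3 higher, beside 6.58%, with a median log2 ratio of 0.03. Cadps, which encodes the dense-core granule priming factor CAPS1, stood at 65.6 CPM in control and 19.7 CPM in Isl1CKO (log2 ratio -1.73). Rab37, a granule GTPase that binds Munc13, was at 58.5 and 21.4 CPM (-1.45). The vesicle glycoprotein gene Sv2b was at 17.1 and 2.37 CPM (-2.85), and the Rab27 effector genes Sytl2 and Sytl5 at 7.80 and 1.62 CPM and at 27.0 and 10.4 CPM. Ppfia2, an active zone scaffold gene, was at 8.19 and 3.75 CPM. The higher genes were Doc2b, a calcium sensor of insulin granule fusion (0.76 and 5.25 CPM), and the active zone scaffold genes Erc2 (7.95 and 20.9 CPM) and Bsn (7.83 and 15.8 CPM). In beta-factor cells Sytl4, which encodes granuphilin, was at 57.9 and 11.7 CPM (-2.31), while in alpha-factor cells it was at 0.47 and 5.06 CPM (3.26). The granule membrane genes Ptprn and Ptprn2 and the vesicle gene Syp were within 2-fold over endocrine cells, with log2 ratios of 0.19, 0.24 and 0.25.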

How the data were processed

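Per the series' design text and labels, tdTomato-sorted islet cells of 3 pooled animals per genotype were captured with the 10x 3′ kit after dissociation with actinomycin D. The authors deposited unfiltered whole-number UMI counts per gene and barcode; the submitters' processing notes name STARsolo, STAR 2.7.3a, Seurat 4.3.0.1 and GRCm38.p6. No normalization is in the counts, which limit precision by depth (48685758 and 86086781 UMIs).

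Barcodes with 1000 UMIs, 500 genes and no more than 15% of UMIs from mitochondria were kept. Scrublet (scanpy 1.11.5) set its own threshold of 0.185 in control and marked 249 of 4219 cells; its own Isl1CKO threshold marked 0 cells and did not work, so the control threshold was used there and marked 360 of 8231 (4.37%). Endocrine cells had at least 2 general endocrine markers and under 1% of UMIs from each of the acinar, immune, stroma, endothelium and erythroid lists, which left out 17 control and 89 Isl1CKO cells, 71 of the latter by the acinar list. Classes were set from lineage-factor or hormone UMIs as the results say (a few members and a class factor are not reported here), and sex from Xist and the Y-linked Ddx3y, Eif2s3y, Kdm5d and Uty. UMIs were summed per library and class. Scale factors were TMM (edgeR 4.0.16, R 4.3.3), per comparison or, for levels across classes, jointly. DESeq2 1.42.0 gave size factors for an alternative only. Ratio intervals are exact conditional 95% intervals of 2 Poisson counts.

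The members, role lists, further exocytosis genes and alternatives were chosen with earlier results of these data known. Genes described in full are those called at 20 CPM or more, or at 100 CPM or more in a library; lower ones with fewer UMIs are named for completeness. Protein sequences that had been planned are not used here, and upstream sequences from RefSeq (GRCm38.p6) were added after seeing the data. Gene positions are from GENCODE vM21. The scripts were tested on simulated counts.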

Additional observations from a re-analysis of the deposited data

Results flagged for a closer look

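Rab3b and Syt1 had genotype ratios of opposite sign in the alpha-factor and beta-factor cells, with both intervals excluding equality; the difference between the classes was not tested. The log2 ratio of Rab3b was -2.05 in alpha-factor and 0.39 in beta-factor cells. That of Syt1 was 0.73 in alpha-factor and -1.44 in beta-factor cells. The signs were the same under each scaling. Syt1 is scarce in glucagon cells, with 5.27 CPM in control Gcg-only cells at a hormone limit of 5%. In free RNA it made up 18.8 CPM of plain totals in control and 11.9 CPM in Isl1CKO. The part of free RNA in its ratios was not tested. Its beta-factor ratio carries the limits given above on somatostatin-cell markers and insulin-only cells.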

How the results depend on the processing

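Over endocrine cells the 1 higher call became 7 on plain totals, 0 in male cells, 2 in female cells and 2 without a filter on low values, and the 6 lower calls became 3 with a filter of 20 CPM. In alpha-factor cells, where none was higher, 3 were on plain totals and 1 in male cells, in female cells, without the filter, with at least 2 factor UMIs and in Gcg-only cells; the 6 lower calls became 11 in female cells, 10 without the filter and 2 at 20 CPM. In beta-factor cells the 3 higher calls became 17 on plain totals and 1 with totals that leave out hormone genes, and the 4 lower became 1 on plain totals and 2 with at least 2 factor UMIs. Between the genotypes in Gcg-only cells, a hormone limit of 5%, chosen after seeing the data, left 11 Isl1CKO cells, and the 1 higher call became 2 and the 7 lower calls 5. The 5 lower calls of Sst-only against Gcg-only control cells became 3 with totals that leave out hormone genes. Except for plain totals and Gcg-only cells at the 1% limit, the share of all genes called under these alternatives is not given here. The changed counts therefore describe the settings and are not read as results about the members. Of 28 single-gene ratios, 24 kept their sign on plain totals, 23 with totals that leave out hormone genes, 24 in male and 23 in female cells, and 28 with DESeq2 size factors, with doublets kept, at 3000 UMIs, at 5% mitochondrial UMIs and with the 0.3% gate; 3 of 6 did so in Gcg-only cells. Relative to TMM, totals that leave out hormone genes moved all ratios by -0.20, -0.32 and -0.19 over endocrine, alpha-factor and beta-factor cells. No paired analysis was possible because each genotype has 1 library. Depth limits the control insulin-only, Sst-only and beta-factor classes, where several members rest on 1 to 23 UMIs.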
